A study of Mus musculus with 12 samples.

Results

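The untreated arm of the genotype comparison set 3 libraries labelled KO_noE against 3 labelled WT_noE, 6 of the 12 libraries of the series, chosen by their titles. KO_noE libraries came from Esr1 knockout mouse endometrial epithelial organoids and WT_noE libraries from wild-type ones, both without estrogen. The other 6 libraries had estrogen added, and the labels state that neither genotype responded to it. Organoids are hollow clusters that grow in a gel from dissociated uterine epithelium, and those sequenced were all at passage 3. The labels give neither the part of Esr1 that was deleted, nor the age of the mice for each library, nor whether the replicates came from separate animals, so p-values measure only the spread between these libraries. Growth without stroma also limits them as a model of the uterus.

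Esr1 encodes estrogen receptor alpha, a nuclear receptor that binds DNA at estrogen response elements once it holds its ligand. In the uterine epithelium it is known for driving growth and secretion during the cycle. The epithelium itself is a simple layer of luminal and glandular cells, whereas the vagina and cervix, which derive from the same Müllerian duct, carry a stratified squamous layer with basal keratins and a cornified surface. Genes known from both kinds of epithelium appear below.

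Counted reads per library ran from 84336449 to 106297315 in WT and from 75654191 to 83287657 in KO, and levels are given in CPM, counts per 1000000 reads of a library after edgeR's TMM scaling. Esr1 read 318, 352 and 253 CPM in the WT libraries and 16.5, 15.9 and 16.7 CPM in the KO libraries, a mean of 5.32% of WT (log2 fold change -4.23 ± 0.13 SE, adjusted p = 1.3e-09, edgeR). Genotype lay along the first principal component of the 6 libraries (94.5% of the variance), and WT replicates 2 and 3 lay at opposite ends of the second (1.93%). WT replicate 3 also held more of several stratified-epithelium transcripts than the other WT libraries, and values without it are given where they move. Defining epithelial markers were high in all 6 libraries: Epcam averaged 1067 ± 64.8 CPM (SD, n = 3) in WT and 653 ± 66.9 in KO, and Cdh1, the epithelial cadherin, 740.0 ± 49.0 and 659 ± 29.2. Below, an error on a CPM value is this SD over 3 libraries and an error on a log2 fold change (KO against WT) is its SE. Of 14 stromal fibroblast markers 6 could be tested, and the summed level of the list was 2.58 to 5.35 CPM in WT and 7.40 to 11.5 CPM in KO. Vim, the 1 called member, made up most of the KO sum and the collagens stayed under 1 CPM.

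Of 26264 genes listed, 16465 had enough reads to test, and 11811 (71.7% of those tested) passed an adjusted p of 0.05 in edgeR's quasi-likelihood test. The knockout was higher for 6206 genes (37.7% of those tested) and lower for 5605 (34%), and 6534 (39.7%) passed with at least a 2-fold change. With library size as the sole scaling the split was 7666 higher to 4029 lower, and the median log2 fold change over all tested genes moved up by 0.23 from 0.04. The size of the changes was lopsided. At least 16-fold rises numbered 1779 and at least 16-fold falls 405, and at 256-fold the counts were 613 and 88. These large rises and falls held like shares of the reads: the 1779 genes took 8.99% to 10.4% of all counted reads in KO, and the 405 took 9.53% to 10.3% in WT. Every gene said below to have risen or fallen passed edgeR at an adjusted p of 0.05 and had groups that did not overlap, unless stated. Level and call for each tested gene are shown in the scatter of group means.

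**Figure D1:**
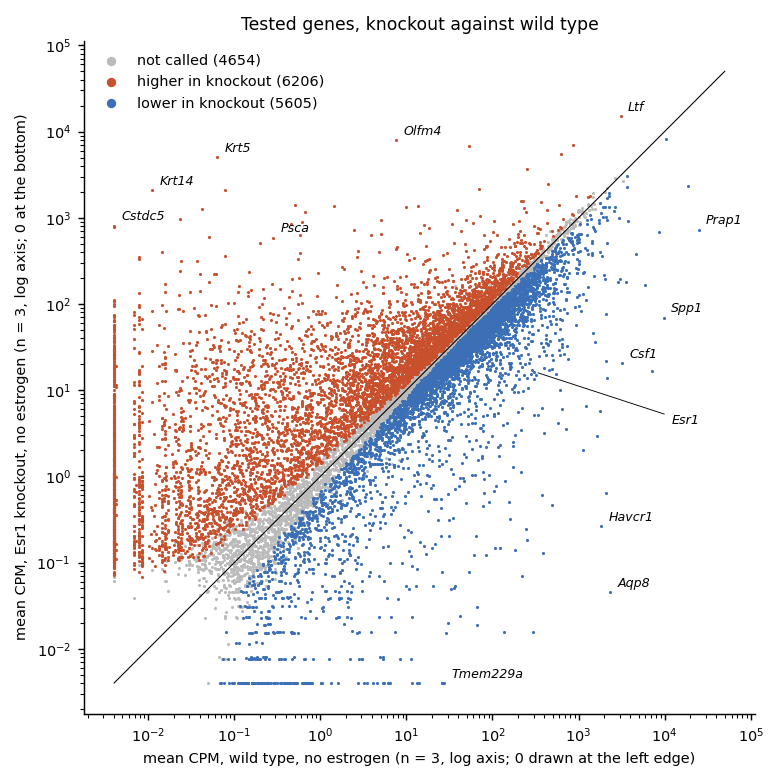
Mean CPM of each tested gene in WT (horizontal, log axis) and KO (vertical, log axis) without estrogen, with genes at 0 drawn at the edges. The 6206 genes called higher spread farthest above the diagonal at low WT levels, and the 5605 called lower lie below it.

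In all, 885 genes had 0 reads in each of the 3 WT libraries and at least 1 read in every KO library. Most were faint: their median level in KO was 0.200 CPM, 236 reached 1 CPM, 84 reached 10 CPM, 21 reached 50 CPM and 6 reached 100 CPM. By RefSeq class 692 were protein-coding, 160 long noncoding, 22 microRNA genes and 11 of other classes. Together they took 0.444% to 0.643% of the reads of a KO library. Reads decided membership, so the 570 of 571 tested members that passed edgeR (background 71.7% of tested genes in either direction) say nothing further. The estrogen-treated libraries, which the choice did not use, were read beside them. There 750 of the 885 had reads in every treated KO library, 591 had 0 reads in all 3 treated WT libraries, and 496 did both. All 236 genes of at least 1 CPM had reads in every treated KO library, and none of them summed to more than 30 reads over the treated WT libraries, the sum of Bche. The labels do not say whether treated and untreated libraries share organoid lines, so the treated libraries are not shown to be an independent reading. In each of the 20 most abundant gained genes the KO replicate number with the highest CPM untreated also had the most reads treated. Some kept the full order, as in Fam216b (36.9, 80.8 and 54.8 CPM untreated, 3639, 8571 and 5343 reads treated). Others kept only the highest, as in Krtdap (1110, 630 and 617 CPM untreated, 146138, 34167 and 52541 reads treated). There replicates 2 and 3, close to each other untreated, changed places. Of 409 genes that just missed with 1 to 3 WT reads, the strongest in KO was Krt14, with 3 reads in WT.

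The 2 most abundant gained genes were Cstdc5 and Krtdap. Cstdc5, a stefin-type inhibitor of cysteine proteases, read 1132, 799 and 508 CPM in the KO libraries and 0 in each WT library. Against a floor of 3 reads over the WT group, 0.0114 CPM, that is at least 71468-fold higher, although near-identical stefin copies make its level uncertain. Krtdap, a secreted keratinocyte differentiation peptide, read 1109.7, 630.3 and 617 CPM in KO, at least 69072-fold above the WT floor. KO replicate 1 was the highest library for both. It was likewise highest for Calm4 (159.5, 80.3 and 62.0 CPM), an epidermal calmodulin-like protein, for Dsc3 (113, 60.4 and 46.4), a desmosomal cadherin of basal layers, and for Lce3f (73.9, 54.1 and 24.8), a late cornified-envelope protein. Sprr3, a cornified-envelope precursor, read 70.4, 46.5 and 52.5 CPM, and Slurp1, a secreted Ly6 protein of stratified epithelia, 73.4, 33.4 and 55.7 CPM. Lypd5, a surface Ly6 relative, read 82.7, 46.0 and 31.4 CPM, and Klk12, a kallikrein protease, 90.6, 50.6 and 55.4 CPM.

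Other genes among the top 20 are known from motile cilia, and in these KO replicate 2 was the highest library. Ccdc153, an axonemal dynein-linked protein, read 70.9, 152 and 107 CPM. Lrrc23, a radial-spoke protein, read 88.8, 132 and 100.6 CPM, Ccdc180 39.4, 67.5 and 47.6 CPM and Fam216b 36.9, 80.8 and 54.8 CPM. All 4 had 0 reads in WT, so they were at least 9658, 9425, 4527 and 5056-fold higher. Replicate 1, highest for Cstdc5 and Krtdap, was the lowest for these 4.

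The other gained genes at the top came from separate functions. Pitx1, a homeobox factor known for hindlimb identity, read 156, 73.0 and 99.7 CPM in KO, at least 9620.0-fold above the WT floor. Has2, which makes hyaluronan, read 59.0, 42.2 and 63.1 CPM (at least 4816-fold). St8sia6, a sialyltransferase, read 55.4, 56.6 and 76.3 CPM. Reg3g, a secreted antibacterial lectin, read 21.7, 94.6 and 97.3 CPM, so its level in KO replicate 1 was below the others, and Cd177, a surface protein best known from neutrophils, read 42.9, 106 and 42.9 CPM. Sptssb, a subunit of serine palmitoyltransferase, read 93.6, 57.0 and 75.5 CPM and Mill1, a class I-like surface molecule, 87.0, 57.8 and 46.3 CPM.

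**Figure D2:**
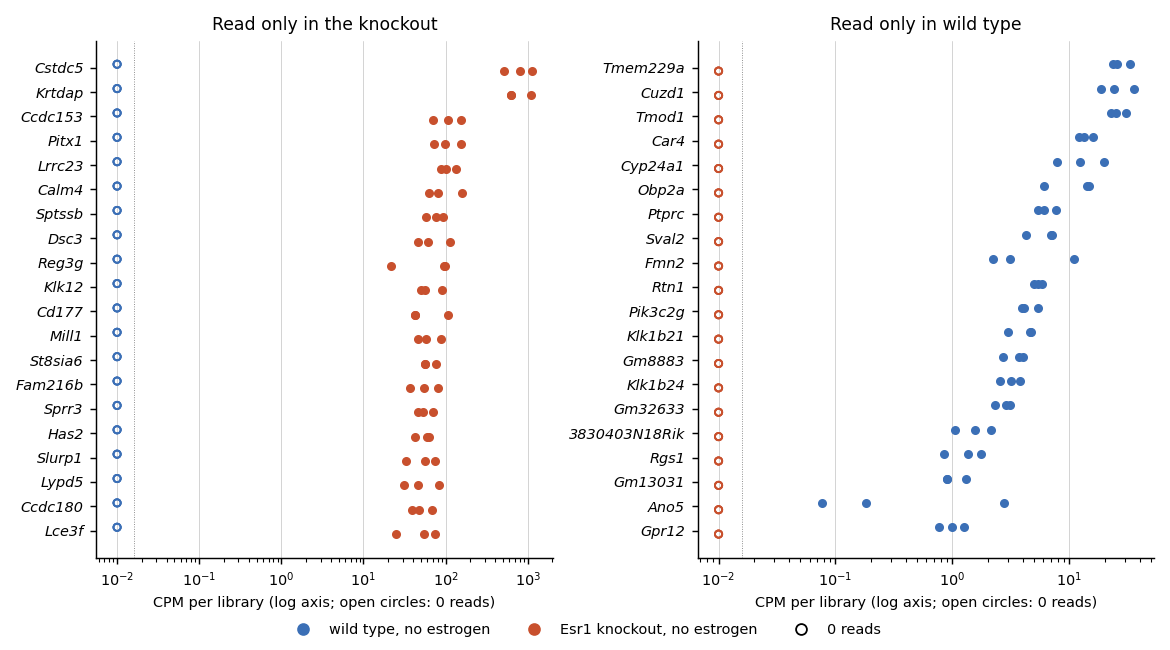
CPM of each library (log axis) for the 20 most abundant genes with 0 reads in the other genotype, gained on the left and lost on the right; open circles mark 0 reads. Gained genes reach 1132 CPM (Cstdc5) whereas the highest lost point, Cuzd1 in WT replicate 3, is at 35.5 CPM, and Ano5 spreads most among the lost.

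The reverse class was smaller and weaker. In 181 genes every WT library had reads and no KO library had any, with a median WT level of 0.0987 CPM. Of these 20 reached 1 CPM and 6 reached 10 CPM, and 121 were protein-coding, 46 long noncoding and 12 microRNA genes. They took 0.0157% to 0.0198% of the WT reads. In the treated libraries 126 of the 181 had reads in every WT library, 78 had 0 reads in all KO libraries and 60 did both. The 20 genes of at least 1 CPM all had reads in every treated WT library and at most 12 reads over the treated KO libraries, the sum of Cuzd1.

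Tmem229a, a membrane protein, led with 23.5, 25.6 and 32.9 CPM in WT against 0 in every KO library, at least 2366-fold lower against the KO floor of 0.0116 CPM. Cuzd1, a protein with CUB and zona pellucida domains known from the estrogen-exposed uterus, read 18.8, 24.3 and 35.5 CPM (at least 2263-fold lower). Tmod1, which caps the slow end of actin filaments, read 24.8, 22.5 and 30.3 CPM, and its exons overlap a neighbouring gene, Tstd2. Each of these had its highest level in WT replicate 3. Car4, a surface-anchored carbonic anhydrase, read 13.4, 15.9 and 12.2 CPM, and Cyp24a1, the enzyme that breaks down vitamin D, 7.89, 19.7 and 12.3 CPM. Obp2a, an odorant-binding lipocalin, read 14.8, 6.13 and 14.3 CPM, and Sval2 4.26, 7.06 and 6.92 CPM. Ptprc, which encodes the leukocyte antigen CD45, read 6.12, 7.66 and 5.45 CPM. Among the other markers of immune cells Csf1r and Cd68 were also lower, 2 were higher (values are given with the cell type markers), and Cd8a and Nkg7 had 0 reads in all 6 libraries.

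Lost genes of lower level included Fmn2, an actin-nucleating formin, at 2.20, 10.9 and 3.13 CPM, and Rtn1, a reticulon, at 5.03, 5.78 and 5.35 CPM. Pik3c2g, a class II lipid kinase, read 4.13, 5.41 and 3.96 CPM. The kallikreins Klk1b21 and Klk1b24 read 3.01, 4.68 and 4.56 CPM and 2.54, 3.78 and 3.20 CPM, but close copies and overlapping gene models make these uncertain. Rgs1, a brake on G protein signalling, read 1.76, 0.839 and 1.36 CPM and the orphan receptor Gpr12 0.764, 1.25 and 0.996 CPM. Ano5, a membrane scramblase, rested on 1 library, with 0.0765, 0.182 and 2.78 CPM: its adjusted p of 0.025 in edgeR became 0.055 without WT replicate 3, and 0.050 to 0.052 when any 1 KO library was left out.

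The 20 genes with most reads in WT held 11.6% to 12.3% of its reads and 4.08% to 4.92% of the KO reads. Those of KO held 9.11% to 9.83% of its own reads and 4.97% to 5.07% of the WT reads. The lists had 7 genes in common. Of the WT 20, 17 were lower in KO and 1, Ltf, was higher (background 34% lower, 37.7% higher). Of the KO 20, 16 were called, 11 of them higher in KO. Choosing genes by their level in 1 group favours higher values in that group, so both counts are descriptions only.

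The largest fall in level was that of Prap1. Prap1, a secreted proline-rich acidic protein and the most abundant transcript of WT, read 28913, 15868 and 29969.7 CPM in WT and 374, 968 and 844 CPM in KO. The groups lay far apart, with WT replicate 2 the lowest of its group (log2 fold change -5.10 ± 0.50 SE, adjusted p = 4.4e-06, edgeR). C3, the central complement component, read 18254, 22544 and 15099.7 CPM and 1894, 2463 and 2559 CPM (-3.01 ± 0.26, adjusted p = 1.4e-06). Spp1, the adhesive phosphoprotein osteopontin that takes part in implantation, read 9511, 8981 and 11110.4 CPM in WT and 57.0, 95.1 and 54.8 CPM in KO (-7.16 ± 0.47). Gpx3, a secreted glutathione peroxidase, read 5922, 11296 and 4092 CPM in WT, highest in replicate 2, and 17.6, 18 and 14.3 CPM in KO (-8.74 ± 0.48). Of these 4, C3 remained among the 20 most abundant transcripts of KO and Prap1, Spp1 and Gpx3 did not.

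Further large falls covered growth factors, membrane enzymes and transport. Csf1, the macrophage growth factor, read 3239, 3759.9 and 2612 CPM in WT and 20.1, 22.3 and 19.4 CPM in KO (-7.28 ± 0.17). F3, tissue factor, fell from 5905 ± 358 to 164 ± 40.9 CPM (-5.17 ± 0.26). Aqp8, a water channel, read 2597, 2230.1 and 2157 CPM in WT and 0, 0.0228 and 0.113 CPM in KO, which is 12 reads over the 3 KO libraries. Abcb1b, a drug efflux pump, fell from 2144 ± 585 to 13.7 ± 3.05 CPM, and Sgms2, which makes sphingomyelin, from 3566 ± 266 to 182 ± 31.8 CPM. Ivns1abp, an actin-associated Kelch protein, fell from 3007 ± 223 to 197 ± 14 CPM, and Gng12, a G protein gamma subunit, from 2889.6 ± 310.3 to 178 ± 14.3 CPM. P4hb, the protein disulfide isomerase, fell from 3742 ± 609.6 to 924 ± 36.5 CPM and Itm2b from 2969.5 ± 309.9 to 986 ± 54.5 CPM. Each of these differences had an adjusted p below that of C3 in edgeR, and no KO library reached a WT one. Eef1a1, the elongation factor, stood among the 15 largest falls in CPM with a small fold: it went from 10349 ± 674 to 8182 ± 361 CPM (-0.34 ± 0.12, adjusted p = 0.023), and the call was lost with library-size scaling (adjusted p = 0.36) and without WT replicate 2, WT replicate 3 or KO replicate 2 (0.067 to 0.075).

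The rises mixed glandular, mucosal and basal products. Ltf, the iron-binding milk and uterine protein lactoferrin, became the most abundant transcript, at 3817, 1174 and 4326 CPM in WT and 12011, 15900.5 and 17093 CPM in KO (2.27 ± 0.58, adjusted p = 0.0044, edgeR). WT replicate 2 held the least of it, and without that library the log2 fold change was 1.88. Olfm4, a secreted glycoprotein of crypt and gland cells, read 3.87, 3.05 and 16 CPM in WT and 7307, 8103 and 8577 CPM in KO (10.03 ± 1.06, 11.17 without WT replicate 3). Chil1, a secreted chitinase-like lectin, read 52.8, 16.3 and 90.6 CPM and 5897, 7325 and 7327 CPM (7.01 ± 0.74, 7.63 without WT replicate 3). Cfb, complement factor B, rose from 854 ± 314 to 6939 ± 1194 CPM while C3, its partner in the alternative pathway, fell. Cp, the copper-carrying ferroxidase ceruloplasmin, rose from 253 ± 74.2 to 3657 ± 491 CPM, and Pigr, which carries secretory antibodies across epithelium, from 443 ± 143 to 2473 ± 239 CPM. Muc5b, a gel-forming mucin, rose from 0.501 ± 0.377 to 1396 ± 203 CPM.

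Basal and stress keratins were also among the rises. Krt5, a keratin of basal cells, read 0.0127, 0.0607 and 0.116 CPM in WT, 17 reads in all, and 6706, 3366 and 4944 CPM in KO. Its partner Krt14 had 0, 0.0101 and 0.0232 CPM in WT and 2652, 1758 and 1835 CPM in KO, a ratio of 182020.0 (exact 95% counting interval 62284 to 882634). Krt16, Krt6b and Krt6a, keratins of stressed and regenerating squamous epithelium, averaged 2107 ± 559.8, 2171 ± 704 and 1362 ± 448 CPM in KO against 0.0786 ± 0.0594, 69.7 ± 28.4 and 1.45 ± 1.80 CPM in WT. Sequence shared between Krt14 and Krt16 and between Krt6a and Krt6b makes the split within each pair uncertain, and without WT replicate 3 the log2 fold change of Krt6a went from 9.88 to 11.70. Dmkn, a secreted keratinocyte protein, read 9.06, 3.51 and 28.4 CPM in WT and 1728, 1220.2 and 1179.6 CPM in KO (6.65 ± 0.92, 7.78 without WT replicate 3). Perp, a desmosome protein, rose from 215 ± 20.1 to 1573 ± 225 CPM, and Gsto1, a glutathione transferase, from 624 ± 108 to 5481 ± 627 CPM.

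**Figure D3:**
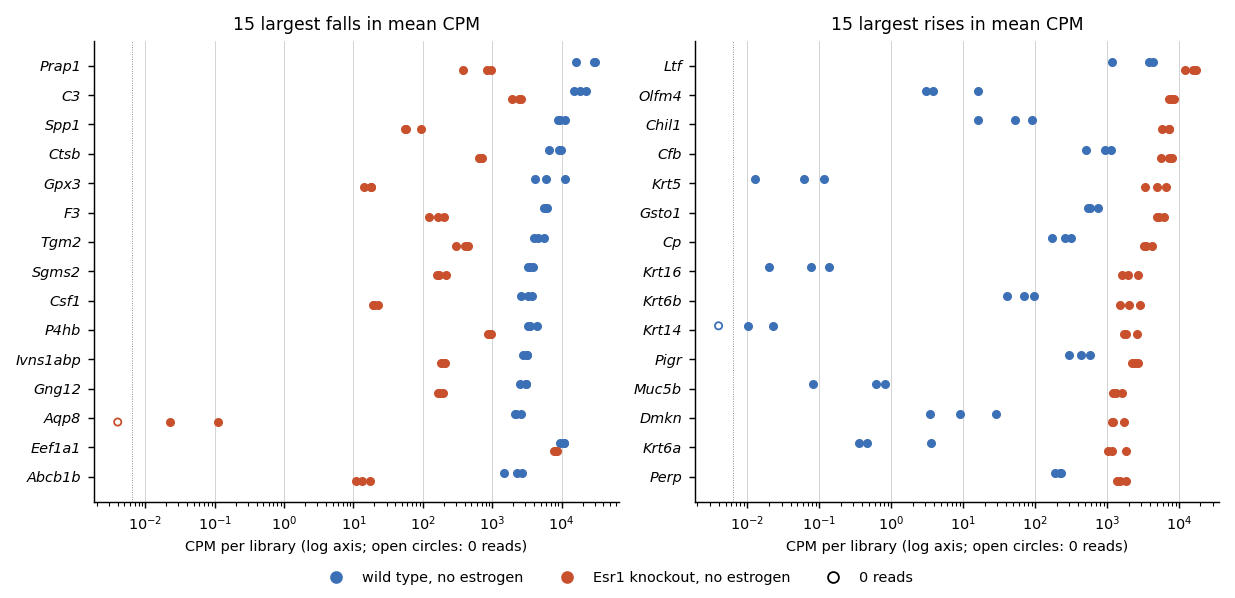
CPM of each library (log axis) for the 15 largest falls and 15 largest rises in mean CPM among genes that passed the test. WT and KO points do not overlap for any of the 30; Eef1a1 shows the smallest gap among the falls, and the WT points of Krt5, Krt14 and Krt16 lie below 1 CPM.

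The 10 most abundant transcripts that missed the threshold included ribosomal proteins, the ferritin chains and Lcn2. Lcn2, the siderophore-binding lipocalin, read 3273, 2724 and 3924 CPM in WT and 1976, 3020.2 and 3020.0 CPM in KO, overlapping groups, with a 95% interval of the log2 difference from -0.80 to 0.18. Fth1, the ferritin heavy chain, had an interval of -0.34 to 0.59 and Aldoa, a glycolytic enzyme, of -0.23 to 0.33. Intervals for Rpl4, Rps4x and Bsg ran from -0.48 at the lowest to 0.35 at the highest, and the sign of these 3 turned with library-size scaling. Ftl1, the ferritin light chain, and Rpl7 passed under that scaling, at adjusted p of 0.033 and 0.0048. Rack1 and Anxa2 also missed the threshold.

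Divided by exon length from GENCODE, which lets genes be compared with each other, the WT order began with Prap1 (40188 ± 12668 CPM per kilobase), far above Spp1 (5987 ± 673), Sprr2f (4262 ± 526) and Eef1a1 (4151 ± 270.2). Neighbours Sprr2f, Eef1a1, Gpx3 and C3 did not differ beyond their spread. The KO order began with Ltf (4348 ± 770.2) and Eef1a1 (3282 ± 145). S100a11, a calcium-binding protein of cornified cells, then followed at 2722 ± 347, with Gsto1, Olfm4, Cfb, Chil1 and Krt5 between 2278 and 2709, within each other's spread. On this scale Prap1 went from rank 1 to rank 20 and Gpx3 from rank 5 to rank 4864, while Krt5 went from rank 14690 to rank 8.

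Promoters were read for motifs because the deleted protein binds DNA. RefSeq windows of build GRCm38.p6, from 250 bases before to 50 after a gene's start, were found for 12871 of the tested genes, and a gene counted when any of its windows held the motif. The palindromic estrogen response element GGTCANNNTGACC, the same on both strands, stood in 3 of them, and in 0.0700% of all 32851 windows. Pde10a, a phosphodiesterase that breaks down cyclic nucleotides, read 28.4, 12.2 and 37.0 CPM in WT and 0.0962, 0.0685 and 0.0676 CPM in KO (-8.36 ± 0.75, adjusted p = 2.2e-06, edgeR). The noncoding gene 4930546K05Rik had 2 reads in WT and 0.637, 0.491 and 0.721 CPM in KO, and Tex45, with 18 WT and 12 KO reads, was not called (adjusted p = 0.41, edgeR). The AP-1 site TGACTCA, searched on both strands as TGAGTCA, stood in 5.2% of all windows and in the promoter of 5.21% of tested genes. The gene shares here are over genes with a promoter window only. Its share was 5.88% of those called higher (283 of 4811), 4.81% of those called lower (215 of 4471) and 4.79% of those not called (172 of 3589). It was 7.37% of those at least 4-fold higher (174 of 2362) and 7.74% of those at least 4-fold lower (57 of 736). Among gained genes it was 7.42% (49 of 660), and among lost ones 5.88% (8 of 136). Sites are printed for the first 2 of these estrogen response elements and for 4 AP-1 genes already described, 2 from each direction, with the motif in capitals, 5′ to 3′ on the gene's strand, so that the letters can be compared. They were chosen after the values were seen.
Pde10a: gggcggttGGTCAACCTGACCagagggag
4930546K05Rik: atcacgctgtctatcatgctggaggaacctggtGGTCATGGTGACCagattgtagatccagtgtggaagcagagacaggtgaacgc
Krtdap: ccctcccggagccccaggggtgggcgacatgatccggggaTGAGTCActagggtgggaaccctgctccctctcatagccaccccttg
Dmkn: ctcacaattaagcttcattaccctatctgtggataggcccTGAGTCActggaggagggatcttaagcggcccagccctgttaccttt
F3: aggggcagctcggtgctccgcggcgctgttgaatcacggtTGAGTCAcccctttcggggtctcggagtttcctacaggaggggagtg
Sgms2: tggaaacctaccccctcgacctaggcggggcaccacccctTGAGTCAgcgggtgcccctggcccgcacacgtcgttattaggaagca
The Pde10a site lies at chr17:8849994-8850022, plus strand, just after a transcription start, and that of 4930546K05Rik at chr9:42209396-42209481, minus strand, before the start. The AP-1 windows lie upstream of a start, at chr7:30787784-30787870 on the plus strand for Krtdap, chr7:30763627-30763713 on the plus strand for Dmkn, chr3:121723362-121723448 on the plus strand for F3 and chr3:131490753-131490839 on the minus strand for Sgms2. Krtdap and Dmkn are neighbours and both were far higher in KO, whereas F3 and Sgms2 were lower, so the same letters stood before genes that went either way. A match describes letters and is not evidence of binding.

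Functions were read through 40 lists of genes, 1625 distinct genes of which 1339 could be tested. Of those tested 636 were higher in KO and 369 lower. Higher members outnumbered lower ones in 32 lists and the reverse held in 7. Counts are to be read against the 37.7% higher and 34% lower of all tested genes, and medians against 0.04 for all. No list was put to a test of its own. With library-size scaling the majority turned in 4 lists: Hippo pathway, DNA methylation and Polycomb, metal handling, and tetraspanins.

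**Figure D4:**
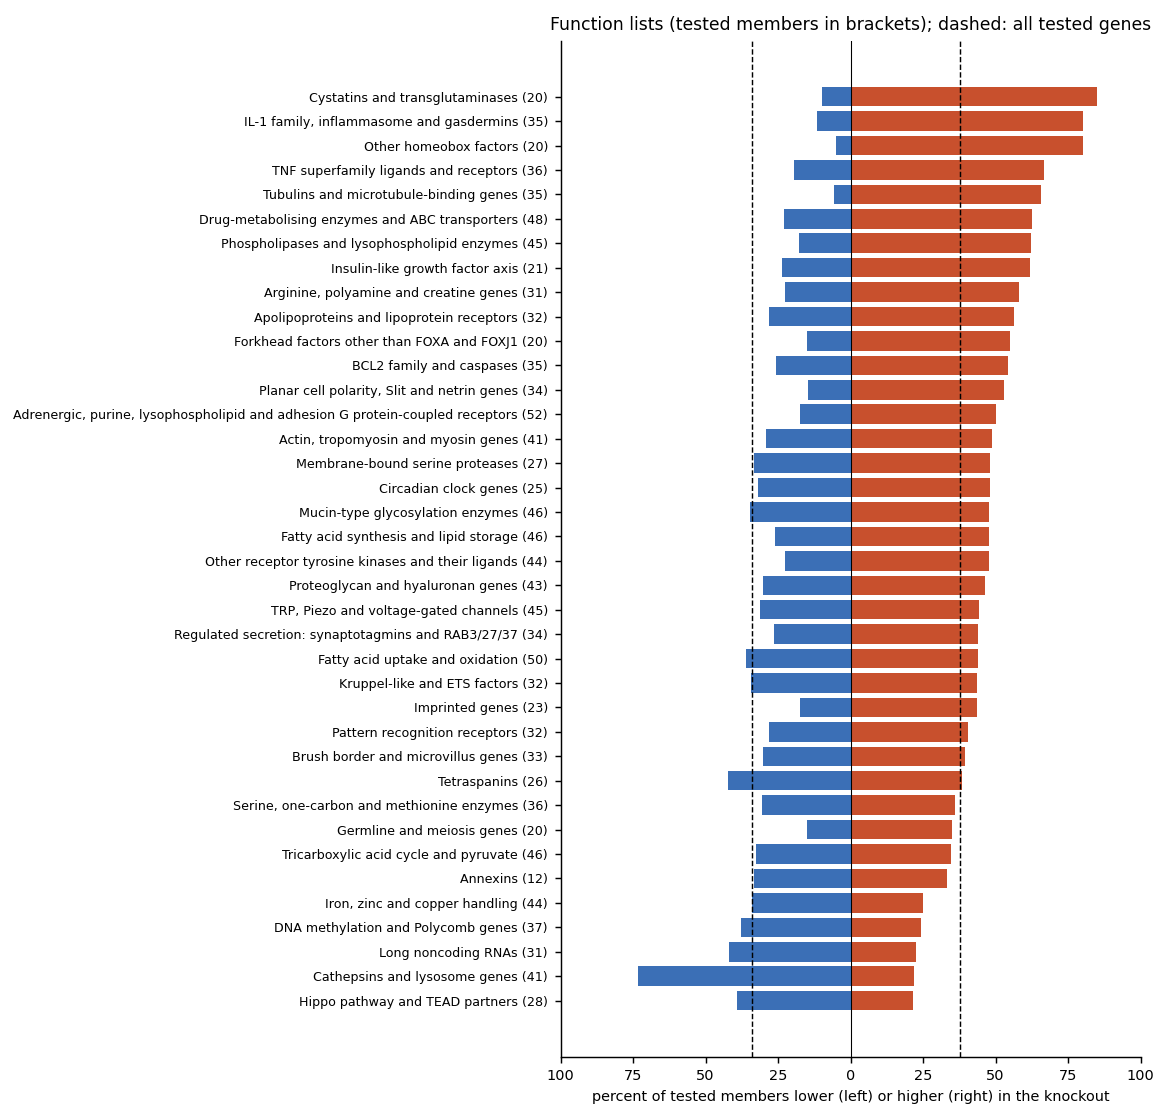
Percent of tested members called lower (left) and higher (right) in KO for the function lists with at least 10 tested members; dashed lines mark the 34% and 37.7% of all tested genes, and 1 list is not drawn. The lysosome list reaches farthest to the left, and cystatins and transglutaminases, IL-1 family and homeobox lists reach farthest to the right.

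Lysosomal genes were mostly lower. The cathepsin and lysosome list had 9 of the 41 tested members higher and 30 lower (median log2 fold change -0.60), and its summed level was 20877 to 24388.5 CPM in WT and 8512 to 9711 CPM in KO. Ctsb, a cathepsin that works both as endo- and exopeptidase, read 9302, 9793 and 6630.2 CPM in WT and 648, 692 and 723 CPM in KO (-3.64 ± 0.20, adjusted p = 4.7e-08, edgeR), more than any other member in CPM. Ctsl, another cathepsin, fell from 2667 ± 369 to 1336 ± 135 CPM. Against this trend Lipa, the acid lipase, rose from 6.94 ± 0.458 to 23.0 ± 3.84 CPM, and so did Tfeb (from 6.35 ± 0.39 to 17.3 ± 0.378 CPM), a transcription factor that switches on lysosome genes.

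The list of cystatins, which inhibit cathepsins, also holds the transglutaminases, which cross-link proteins. In the list of cystatins and transglutaminases 17 of 20 tested members were higher and 2 lower (median 6.67, which rests on fitted values of genes with few WT reads). Stfa3, a stefin beside Cstdc5, read 20.0, 11.1 and 8.40 CPM in KO against 0 in WT (at least 1157-fold). The 2 lower members had high WT levels: Tgm2, tissue transglutaminase, fell from 4652 ± 787 to 381 ± 71.3 CPM (-3.61 ± 0.27), and Cst3, the secreted cystatin C, from 305 ± 33.2 to 184 ± 12.7 CPM. Membrane serine proteases split, with 13 of the 27 tested members higher and 9 lower. Tmprss11d, an airway-type trypsin-like protease, rose from 1.55 ± 1.80 to 167 ± 44.1 CPM (6.75 ± 0.83, 8.33 without WT replicate 3), and Tmprss11a from 0.0414 ± 0.053 to 17.6 ± 5.34 CPM. Tmprss4 fell from 1002 ± 66.0 to 289 ± 8.13 CPM and Tmprss11e from 301 ± 89.2 to 65.4 ± 9.16 CPM.

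The IL-1 and TNF family lists had mostly higher members, counting receptors and other genes along with the cytokines. The list of the IL-1 family, inflammasome and gasdermins had 28 of the 35 tested members higher and 4 lower (median 2.39). Il1rl2, the receptor for IL-36, rose from 0.0606 ± 0.0484 to 17.2 ± 1.42 CPM and Il18rap, a subunit of the IL-18 receptor, from 0.0519 ± 0.0233 to 12.6 ± 1.46 CPM. Il1a, the alarm cytokine of epithelia, went against them at 670.3, 293 and 842 CPM in WT and 50.7, 47.7 and 56.1 CPM in KO (-3.55 ± 0.49, adjusted p = 6.2e-05, edgeR), and Sigirr, an inhibitory receptor of the family, fell from 39.2 ± 0.897 to 18.9 ± 1.21 CPM. The other 2 lower members were Il1b (-3.41, from 1.90 to 0.176 CPM) and Nlrp3 (-1.80, from 0.272 to 0.0777 CPM). The TNF superfamily list of ligands and receptors had 24 of the 36 tested members higher and 7 lower. Tnf rose from 0.649 ± 0.31 to 28.2 ± 2.40 CPM and Cd40 from 0.293 ± 0.127 to 9.83 ± 1.23 CPM, while Tnfrsf22 fell from 100.8 ± 35.1 to 19.5 ± 1.40 CPM and Tnfrsf26 from 8.50 ± 2.99 to 0.274 ± 0.0314 CPM, both decoy-like receptors of rodents. Pattern recognition receptors had 13 of the 32 tested members higher and 9 lower. Pglyrp3 and Pglyrp4, peptidoglycan-binding proteins of skin, rose from 1.18 ± 1.37 to 60.5 ± 14 CPM and from 1.61 ± 1.54 to 54.8 ± 11.4 CPM. Without WT replicate 3 their log2 fold changes went from 5.68 and 5.10 to 7.29 and 6.25. Lbp, which hands bacterial lipopolysaccharide to its receptor, fell from 1420.2 ± 118 to 385 ± 48.0 CPM, and Tlr2 from 33.8 ± 6.52 to 9.16 ± 0.866 CPM. The BCL2 and caspase list had 19 of the 35 tested members higher and 9 lower. Casp14, the caspase of cornification, rose from 0.376 ± 0.179 to 12.9 ± 5.84 CPM and Bcl2l14 from 1.21 ± 0.29 to 20.2 ± 1.97 CPM, and the survival genes Bcl2l1 and Bcl2l2 fell from 186 ± 4.66 to 87.7 ± 5.33 CPM and from 119.5 ± 4.76 to 61.9 ± 4.07 CPM.

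**Figure D5:**
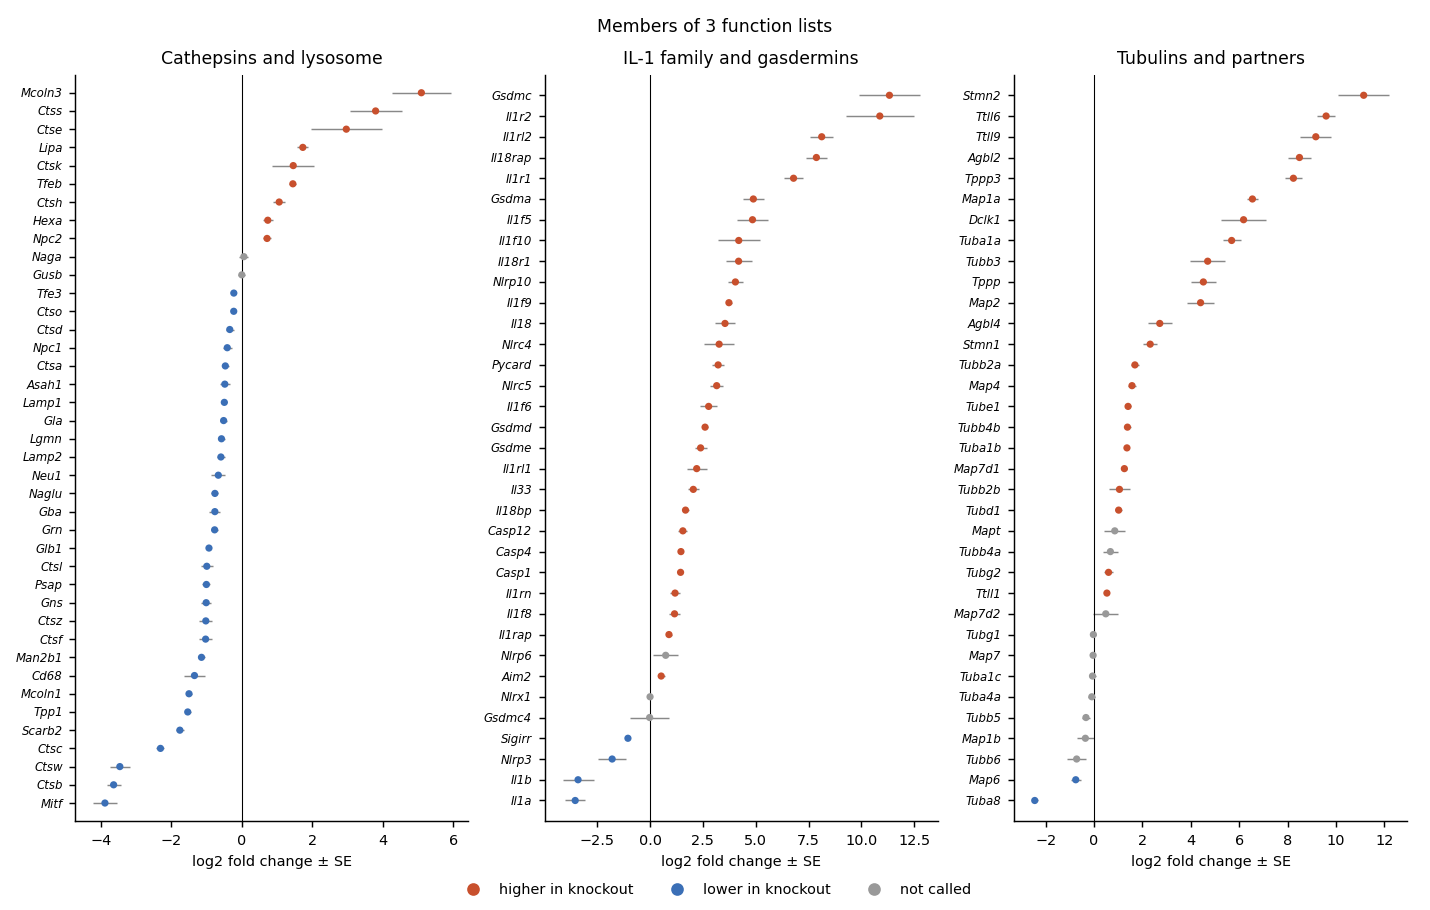
Log2 fold change (KO against WT, ± SE) of tested members of 3 function lists, coloured by call, with 1 called-lower lysosome gene not drawn. Of the 41 lysosome genes 30 were called lower, whereas 28 of 35 IL-1 family members and 23 of 35 tubulin partners lie to the right as called; fitted values of genes with few WT reads, such as Il1r2 and Stmn2, depend on the model's prior count.

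Receptors for growth factors and small ligands differed gene by gene. Other receptor tyrosine kinases and their ligands had 21 of the 44 tested members higher and 10 lower. Ntrk2, the receptor for brain-derived neurotrophic factor, read 266, 253 and 224 CPM in WT and 0.264, 0.228 and 0.248 CPM in KO (-9.96 ± 0.29, adjusted p = 1.3e-09, edgeR), whereas Ngfr, the low-affinity neurotrophin receptor of basal cells, rose from 0.16 ± 0.0692 to 21.2 ± 6.51 CPM. Axl, a receptor for Gas6, rose from 0.382 ± 0.133 to 89.7 ± 34.1 CPM and Gfra4, a co-receptor of Ret, fell from 6.49 ± 1.54 to 0.0993 ± 0.046 CPM. The insulin-like growth factor axis had 13 of the 21 tested members higher and 5 lower (median 1.40). Igfbp5, a binding protein that limits the factor, rose from 0.0521 ± 0.0588 to 29.8 ± 8.26 CPM and Stc1, a secreted glycoprotein, from 0.0527 ± 0.00731 to 22.8 ± 2.03 CPM, while the receptors Igf1r and Insr fell from 181 ± 11.2 to 105 ± 11.6 CPM and from 101.0 ± 5.32 to 62.5 ± 7.72 CPM. The other 3 lower members were Igf2r (-0.33, from 177 to 141 CPM), Grb7 (-0.26, from 161 to 134 CPM) and Igfbp1, which had 0 reads in KO and 0.137 CPM in WT. The list of G protein-coupled and purine receptors had 26 of the 52 tested members higher and 9 lower. P2rx2, an ATP-gated channel, read 248, 245 and 263 CPM in WT and 0.144, 0.228 and 0.18 CPM in KO (-10.40 ± 0.19, adjusted p = 9.2e-11). Lpar1, a receptor for lysophosphatidic acid, fell from 215 ± 30.0 to 3.43 ± 0.591 CPM while Lpar3, a relative known from implantation, rose from 0.557 ± 0.294 to 18.1 ± 1.18 CPM. Adgrf4, an adhesion receptor, rose from 0.154 ± 0.0453 to 11.4 ± 5.24 CPM.

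Channels and lipid-signalling enzymes split by level. The list of TRP, Piezo and voltage-gated channels had 20 of the 45 tested members higher and 14 lower, yet its summed level was 1791 to 2101 CPM in WT and 835 to 1140.3 CPM in KO. Piezo2, a stretch-gated channel, fell from 62.5 ± 17.6 to 7.04 ± 2.58 CPM and Trpv2 from 6.11 ± 2.22 to 0.155 ± 0.0762 CPM. Trpv3, a warmth-gated channel of keratinocytes, rose from 0.0162 ± 0.0141 to 6.10 ± 1.33 CPM, and Kcnk2, a two-pore potassium channel, read 3.11, 8.27 and 3.86 CPM in KO and 0 in WT (at least 447-fold). Phospholipases had 28 of the 45 tested members higher and 8 lower (median 1.14). Plce1, a Ras-linked phospholipase C, nevertheless fell from 592 ± 54.4 to 29.3 ± 4.37 CPM and Enpp1 from 15.3 ± 4.45 to 2.97 ± 1.01 CPM, while Pla2g4f and Plb1 rose from 0.0459 ± 0.00528 to 6.29 ± 1.75 CPM and from 0.13 ± 0.0657 to 5.6 ± 0.547 CPM.

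In lipid metabolism members of the same list went opposite ways. Fatty acid uptake and oxidation had 22 of the 50 tested members higher and 18 lower. Cd36, the fatty acid translocase, read 108, 143 and 162 CPM in WT and 0.024, 0.0228 and 0 CPM in KO, 4 reads in all (-13.00 ± 0.71, adjusted p = 6.0e-08, edgeR), and Acsl6, an acyl-CoA synthetase, fell from 19.9 ± 1.42 to 0.147 ± 0.0408 CPM. Bdh1, which makes a ketone body, rose from 1.13 ± 0.135 to 28.6 ± 5.61 CPM and Pparg from 0.297 ± 0.24 to 7.89 ± 2.09 CPM. The fatty acid synthesis and storage list had 22 of the 46 tested members higher and 12 lower. The elongases went opposite ways: Elovl4, which makes the very long acids of skin barrier lipids, rose from 0.0539 ± 0.0538 to 51.1 ± 22.0 CPM, and Elovl2, which extends polyunsaturated acids, read 33.0, 52.0 and 39.1 CPM in WT and 0.0721, 0 and 0 CPM in KO, 6 reads in all. Fads3 rose from 0.346 ± 0.216 to 17.9 ± 2.45 CPM and Mgll, the monoglyceride lipase, fell from 344 ± 37.7 to 24.9 ± 2.03 CPM (-3.79 ± 0.15). Apolipoproteins and lipoprotein receptors had 18 of the 32 tested members higher and 9 lower. Pltp, a phospholipid transfer protein, rose from 0.0357 ± 0.0317 to 19.6 ± 2.66 CPM, and Lrp2, the endocytic receptor megalin, rose from 2 WT reads to 7.07, 6.58 and 14.7 CPM, a ratio of 1254 (exact 95% counting interval 347 to 10360.0). Lrp10 fell from 371 ± 18.4 to 150.0 ± 5.38 CPM.

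In central metabolism single enzymes differed. Tricarboxylic acid cycle and pyruvate genes were near balance, with 16 of the 46 tested members higher and 15 lower (median 0.02). Pck1, the gluconeogenic carboxykinase, fell from 167 ± 49.0 to 10.3 ± 6.46 CPM, while Pdk3 and Me2 rose from 5.19 ± 0.801 to 25.7 ± 1.21 CPM and from 15.7 ± 1.42 to 63.4 ± 9.41 CPM. Serine, one-carbon and methionine enzymes had 13 of the 36 tested members higher and 11 lower. Aldh1l1 rose from 2.0 ± 0.602 to 13.7 ± 3.52 CPM and Cth, which makes cysteine, from 0.722 ± 0.305 to 6.68 ± 2.04 CPM, Chdh fell from 156 ± 45.7 to 40.3 ± 4.18 CPM, and Inmt, an indole methyltransferase, fell to 2 reads over KO from 13.5, 14.5 and 5.91 CPM, a WT to KO ratio of 1476 (exact 95% counting interval 408 to 12195). Arginine, polyamine and creatine genes had 18 of the 31 tested members higher and 7 lower, and the 2 arginases went opposite ways. Cytosolic Arg1 read 10.7, 23.9 and 17.1 CPM in WT and 368, 282 and 332 CPM in KO (4.25 ± 0.45), and mitochondrial Arg2 read 86.4, 78.8 and 83.7 CPM and 12.1, 17.6 and 15.5 CPM (-2.46 ± 0.15). Nos2, the inducible nitric oxide synthase that draws on the same arginine, rose from 0.022 ± 0.0204 to 8.88 ± 0.97 CPM, and Prodh fell from 43.3 ± 5.02 to 8.49 ± 0.522 CPM.

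Metal handling and detoxification followed. Iron, zinc and copper genes had 11 of the 44 tested members higher and 15 lower, a majority that turned with library-size scaling (14 higher, 11 lower). Trf, the iron carrier transferrin, read 0.0892, 0.111 and 0.463 CPM in WT and 39.2, 239 and 74.7 CPM in KO, with KO replicate 2 the highest, and Tfrc, its receptor, read 452, 509.5 and 374 CPM and 43.6, 27.4 and 30.8 CPM (-3.71 ± 0.22, adjusted p = 1.0e-07, edgeR). Steap4, a metalloreductase, rose from 3.71 ± 1.59 to 105 ± 4.51 CPM, and Atp7b, the copper exporter that loads ceruloplasmin in liver, fell from 25.5 ± 3.95 to 0.205 ± 0.0311 CPM although Cp rose. Drug-metabolising enzymes and ABC transporters had 30 of the 48 tested members higher and 11 lower (median 1.80). Cyp2f2, a cytochrome P450 of airway club cells, went from 2 WT reads to 117, 141 and 146 CPM, a ratio of 17764 (exact 95% counting interval 4917 to 146693). Abca12, the lipid transporter of the skin barrier, read 40.2, 22.6 and 14.5 CPM in KO and 0 in WT. Abcb1a fell with Abcb1b, from 53.3 ± 14.3 to 0.0769 ± 0.0115 CPM, and the 2 are close copies.

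Single glycosylation and matrix genes differed, and the counts of their lists stand beside 37.7% higher and 34% lower of all tested genes. Mucin-type glycosylation enzymes had 22 of the 46 tested members higher and 16 lower: besides St8sia6, St6gal1, which adds terminal sialic acid, read 0.127, 0.182 and 0.51 CPM in WT and 141, 194 and 181 CPM in KO (9.29 ± 0.66, 10.08 without WT replicate 3). B3gnt8 fell from 43.2 ± 7.03 to 4.05 ± 0.119 CPM and Fut4, a fucosyltransferase, from 30.5 ± 3.18 to 6.80 ± 0.771 CPM. Proteoglycan and hyaluronan genes had 20 of the 43 tested members higher and 13 lower. The glypicans Gpc3 and Gpc4, heparan sulfate carriers on the cell surface that lie side by side on the X chromosome, went opposite ways: Gpc3 read 223, 76.7 and 220.3 CPM in WT and 3.44, 2.06 and 2.09 CPM in KO, and Gpc4 0.331, 1.15 and 0.985 CPM and 39.9, 36.7 and 35.9 CPM. Hs3st3b1, a heparan sulfate sulfotransferase, fell from 259 ± 14.1 to 10.5 ± 1.09 CPM.

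Cytoskeleton genes followed. Tubulins and microtubule-binding genes had 23 of the 35 tested members higher and 2 lower (median 1.36). Ttll6, which adds glutamates to ciliary tubulin, rose from 0.0712 ± 0.0518 to 56.6 ± 13.8 CPM, Ttll9 went from 3 WT reads to 5.78, 10.1 and 6.02 CPM, and Tuba8 and Map6 fell from 122 ± 3.57 to 22.2 ± 1.93 CPM and from 25.2 ± 3.81 to 14.9 ± 2.13 CPM. Actin, tropomyosin and myosin genes had 20 of the 41 tested members higher and 12 lower. Fscn1, which bundles actin in protrusions, rose from 0.0689 ± 0.00792 to 32.5 ± 9.66 CPM and Tpm2 from 1.80 ± 1.58 to 78.4 ± 18.1 CPM, while Myh14 fell from 524 ± 66.7 to 142 ± 5.10 CPM; the log2 fold change of Tpm2 was 5.45, and 6.47 without WT replicate 3. Brush border genes had 13 of the 33 tested members higher and 10 lower, and 2 of its surface peptidases went opposite ways. Anpep, aminopeptidase N, read 0.229, 0.536 and 0.904 CPM in WT and 313, 337 and 341 CPM in KO (9.20 ± 0.54, adjusted p = 9.4e-08, edgeR), and Mme, neprilysin, read 86.6, 114 and 54.6 CPM and 0.144, 0.0914 and 0.135 CPM (-9.41 ± 0.36, adjusted p = 5.8e-09). Ggt1 rose from 0.382 ± 0.179 to 13.3 ± 4.23 CPM and Pls1, a microvillus actin bundler, fell from 174 ± 6.13 to 42.1 ± 6.79 CPM.

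Surface and secretion genes were mixed. Planar cell polarity, Slit and netrin genes had 18 of the 34 tested members higher and 5 lower. Ntn1, the laminin-like guidance protein netrin-1, read 630.3, 677 and 522 CPM in WT and 7.90, 12.7 and 9.18 CPM in KO (-5.94 ± 0.35, adjusted p = 9.7e-08, edgeR), and Slit2 fell from 17.0 ± 4.25 to 2.57 ± 1.36 CPM while its receptor Robo2 rose from 0.14 ± 0.0523 to 15.0 ± 2.29 CPM. The other 3 lower members were Fat1 (-1.77, from 785 to 229.8 CPM), Celsr3 (-1.95, from 1.17 to 0.303 CPM) and Scrib (-0.53, from 188 to 129.8 CPM). Fat2, a giant cadherin of basal keratinocytes, read 39.4, 11.7 and 20.6 CPM in KO and 0 in WT (at least 2098-fold). Tetraspanins had 10 of the 26 tested members higher and 11 lower (12 higher and 9 lower with library-size scaling). Tspan12 and Tspan2 rose from 1.53 ± 0.303 to 44.0 ± 2.09 CPM and from 0.0843 ± 0.0284 to 20.3 ± 4.04 CPM and Tspan4 fell from 75.0 ± 3.43 to 20.1 ± 2.34 CPM, and the fall of Upk1a (3.53, 32.8 and 3.02 CPM to 0.841, 1.03 and 1.51 CPM) rested on WT replicate 2, without which the adjusted p was 0.081. All 12 annexins were tested, 4 higher and 4 lower. Anxa8, an annexin of stratified epithelia, rose from 14.3 ± 11.8 to 659 ± 72.0 CPM (5.52 ± 0.77, 6.42 without WT replicate 3) and Anxa9 from 6.15 ± 1.05 to 56.4 ± 22.8 CPM, while Anxa6 and Anxa4 fell from 321 ± 43.2 to 165 ± 11.5 CPM and from 343 ± 16.6 to 236 ± 18 CPM. Anxa1 (2.78, from 228 to 1568 CPM) and Anxa3 (1.01, from 118 to 239 CPM) were the other higher members, and Anxa5 (-0.49, from 290.0 to 206 CPM) and Anxa7 (-0.50, from 377 to 266 CPM) the other lower ones. Regulated secretion genes had 15 of the 34 tested members higher and 9 lower, with both Rab27 GTPases, which dock granules, higher: Rab27a rose from 5.43 ± 2.59 to 63.3 ± 6.62 CPM and Rab27b from 3.43 ± 1.56 to 39.1 ± 11.6 CPM. Unc13b, a granule primer, fell from 115 ± 3.05 to 42.2 ± 4.05 CPM and Sytl3 from 8.01 ± 1.22 to 2.08 ± 0.688 CPM.

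Among the transcription factor lists, homeobox factors outside the Hox clusters had the largest share higher, 16 of the 20 tested members higher and 1 lower (median 3.09). Of the 40 members 20 could not be tested, 18 had 0 reads in WT and 12 had 0 reads in KO. Those silent in WT could be tested only through KO, so the share and the median are descriptions only. The lower member was Hhex (-3.63, from 4.28 to 0.343 CPM). Meox1 read 7.48, 3.62 and 8.90 CPM in KO against 0 in WT (at least 586-fold). Of 29 Hox genes of the A, C and D clusters only 2 could be tested, of which Hoxd8 was lower (-4.10, from 0.286 to 0.0151 CPM), and the summed level of the 29 was 0.324 to 0.695 CPM in WT and 0.144 to 0.251 CPM in KO. Kruppel-like and ETS factors had 14 of the 32 tested members higher and 11 lower. Ets2 read 1136, 1081 and 974 CPM in WT and 78.7, 85.6 and 82.1 CPM in KO (-3.69 ± 0.11, adjusted p = 1.4e-09, edgeR), and Etv1 fell from 34.8 ± 4.12 to 11.8 ± 0.765 CPM. Elf5 and Spdef, ETS factors of secretory and glandular cells, rose from 1.28 ± 1.03 to 30.1 ± 8.89 CPM and from 0.178 ± 0.128 to 6.80 ± 1.43 CPM, and the log2 fold change of Elf5 was 4.54, or 5.38 without WT replicate 2. Forkhead factors had 11 of the 20 tested members higher and 3 lower: Foxn4, a factor of multiciliated cells, went from 2 WT reads to 11.8, 12.4 and 10.2 CPM, Foxq1 rose from 5.77 ± 1.85 to 72.8 ± 3.18 CPM, and Foxc1 and Foxo1, a factor of the uterine response to progesterone, fell from 65.4 ± 15.9 to 12.1 ± 3.48 CPM and from 181 ± 13.4 to 63.5 ± 7.50 CPM. The third lower member was Foxk1 (-1.45, from 165 to 60.4 CPM).

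Hippo pathway genes had 6 of the 28 tested members higher and 11 lower, against 13 higher and 8 lower with library-size scaling. Ccn2, a matrix protein induced by this pathway, read 209, 143 and 427 CPM in WT and 5.79, 55.6 and 18.1 CPM in KO (-3.29 ± 0.96, -4.44 without KO replicate 2). The TEAD factors, which bind DNA for YAP, went opposite ways, with Tead2 up from 4.47 ± 3.26 to 13.7 ± 0.114 CPM (1.62 ± 0.43, 2.40 without WT replicate 3) and Tead4 down from 30.1 ± 4.61 to 10.3 ± 1.09 CPM, and Vgll4 rose from 22.1 ± 2.18 to 55.0 ± 3.45 CPM. Clock genes had 12 of the 25 tested members higher and 8 lower. Arntl, the activator arm of the clock, fell from 19.4 ± 1.47 to 8.23 ± 0.514 CPM while its targets Dbp and Nr1d1 rose from 5.93 ± 0.772 to 52.3 ± 9.70 CPM and from 23.2 ± 2.59 to 75.3 ± 14 CPM, and Bhlhe41 fell from 21.8 ± 3.35 to 9.29 ± 3.12 CPM. The labels give no hour of harvest.

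Chromatin, imprinted, germline and noncoding genes came last. DNA methylation and Polycomb genes had 9 of the 37 tested members higher and 14 lower (17 higher and 6 lower with library-size scaling). Dnmt3a, a methyltransferase that sets new marks, rose from 22.9 ± 2.38 to 66.8 ± 2.42 CPM and Tet3, which removes them, from 29.1 ± 2.17 to 67.2 ± 3.71 CPM, while Bmi1 and Epop fell from 34.4 ± 1.22 to 18.4 ± 0.354 CPM and from 15.9 ± 1.23 to 8.66 ± 2.99 CPM. Imprinted genes had 10 of the 23 tested members higher and 4 lower. Cdkn1c, an imprinted brake on the cell cycle, read 2.98, 3.76 and 3.99 CPM in WT and 38.6, 48.4 and 45.3 CPM in KO (3.62 ± 0.27), Slc22a18 next to it rose from 7.16 ± 2.63 to 14.7 ± 1.42 CPM, and Impact fell from 26.9 ± 1.94 to 14.7 ± 0.983 CPM. The other 3 lower members were Dio3 (-6.53, from 2.25 to 0.0227 CPM), Nnat (-1.46, from 3.85 to 1.40 CPM) and Igf2r. Germline and meiosis genes had 7 of the 20 tested members higher and 3 lower, led by Mov10, a helicase that restrains transposons, up from 9.02 ± 2.53 to 32.0 ± 1.01 CPM, and Rec8 up from 6.55 ± 0.483 to 15.3 ± 0.821 CPM, with Tdrkh down from 7.68 ± 1.03 to 3.95 ± 0.814 CPM. Ddx4 (-3.20, from 3.14 to 0.34 CPM) and Meioc (-2.36, from 0.4 to 0.0763 CPM) were the other lower members. Long noncoding RNAs had 7 of the 31 tested members higher and 13 lower. Snhg11 and Snhg1, small nucleolar RNA hosts, rose from 10.3 ± 2.08 to 23.4 ± 3.77 CPM and from 26.0 ± 2.04 to 40.3 ± 3.64 CPM, and Snhg18 and Ftx fell from 14.8 ± 1.65 to 5.28 ± 0.736 CPM and from 5.6 ± 0.272 to 2.52 ± 0.461 CPM.

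Markers of other cell types were read in the same libraries. Their counts, too, are to be read against the 37.7% higher and 34% lower of all tested genes, and none of these lists was tested as a set. The kidney tubule list had 6 of 17 tested members higher and 10 lower, with a summed level of 2358 to 3422 CPM in WT and 119 to 135 CPM in KO. Most of that sum was Havcr1, a surface phosphatidylserine receptor of injured tubule (2049, 1465 and 1975 CPM in WT, 0.361, 0.366 and 0.0676 CPM in KO, -12.76 ± 0.66), and Kap, a hormone-regulated tubule protein (652, 487 and 1026 and 2.84, 5.50 and 2.41 CPM, -7.65 ± 0.58). The defining tubule transporters Slc22a6 and Slc22a8 had 0 reads in all 6 libraries, and Umod and Slc12a1 went from 2.66 ± 1.03 to 0.176 ± 0.186 CPM and from 8.05 ± 0.624 to 0.0379 ± 0.0348 CPM. Hnf4a, a factor of proximal tubule and gut, went the other way, from 0 reads to 6.13, 12.4 and 6.60 CPM.

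Urothelial markers had 8 of 12 tested members higher and 2 lower, with sums of 109 to 147 CPM in WT and 531 to 783 CPM in KO. Psca, a surface antigen of bladder and stomach, made up most of the KO sum, at 0.178, 0.222 and 0.452 CPM in WT and 601, 462 and 705 CPM in KO (11.01 ± 0.47, adjusted p = 1.1e-08, edgeR). The 2 lower members were Upk1a, as above, and Upk3bl (-2.33, from 111 to 22.1 CPM). Of the other uroplakins, which form the plaques of the bladder surface, Upk3b read 0, 0.142 and 0.0927 CPM in WT and 3.70, 7.04 and 8.37 CPM in KO (6.26 ± 0.78, 7.01 without WT replicate 2, adjusted p = 2.9e-05, edgeR). Upk3a read 2.87, 0.845 and 1.80 CPM and Upk1b 0.745, 0.297 and 0.405 CPM in KO with 0 in WT, both called higher. Upk2, at 0.331, 0.637 and 0.255 CPM in WT and 0.553, 0.286 and 0.462 CPM in KO, was not called. Grhl3, a barrier factor shared with epidermis, rose from 0.142 ± 0.13 to 29.6 ± 8.27 CPM.

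Tuft cell markers had 9 of 11 tested members higher and none lower, with sums of 23.9 to 36.4 CPM in WT and 110 to 129 CPM in KO. Of the 18 listed, 7 could not be tested. Called members with few or no WT reads, such as Hmx2, Bmx and Gng13, passed the filter through KO alone, which fixed their direction. Much of the sum lay in genes that other cells also express, Avil (from 5.39 ± 2.55 to 27.6 ± 1.02 CPM), Ptgs1 (from 21.5 ± 3.37 to 70.6 ± 7.52 CPM) and Alox5ap (from 2.03 ± 0.583 to 8.98 ± 1.48 CPM). Dclk1, a kinase used to mark tuft cells, rose from 0.0315 ± 0.017 to 2.31 ± 1.53 CPM (6.18 ± 0.93, 5.57 without KO replicate 2, adjusted p = 1.2e-04, edgeR), and Ltc4s, which makes a leukotriene, from 0.218 ± 0.101 to 5.47 ± 0.188 CPM. Gng13, a G-protein subunit of taste signalling whose exons overlap those of Chtf18, went from 2 WT reads to 0.601, 1.41 and 0.856 CPM, a ratio of 127 (exact 95% counting interval 34.7 to 1050.4). Hmx2 read 0.216, 0.183 and 0.293 CPM in KO against 0 in WT (at least 20.3-fold), and Alox5 was also higher (3.73, from 0.0152 to 0.219 CPM). Bmx (0 reads in WT and 26 in KO) was called higher too, but its groups overlapped, with 0.168, 0.137 and 0 CPM in KO. Pou2f3, the factor that specifies tuft cells, had 12 reads in each group and was not called. Trpm5, a cation channel, read 0.0765, 0.0809 and 0.0695 CPM in WT and 0.264, 0.411 and 0.045 CPM in KO and was not called, and Gnat3, Rgs13 and Chat had 0 reads in all 6 libraries. Neuroendocrine markers summed to 2.37 to 3.37 CPM in WT and 5.45 to 7.19 CPM in KO. Of the 18 listed 7 were tested, 4 higher and 2 lower. Calcb, with 0 reads in WT and 4.16, 1.43 and 3.07 CPM in KO, was higher, as were Eno2, Uchl1 and Calca. Scg5 (from 0.733 to 0.0847 CPM) and Chga (from 0.161 to 0.0542 CPM) were lower. Oviduct secretory markers fell in 3 of 6 tested members, Pax8 (from 236 ± 12.0 to 68.9 ± 7.13 CPM), Pax2 (from 93.0 ± 17.1 to 45.6 ± 3.18 CPM) and Ovgp1 (from 11.1 ± 2.10 to 4.69 ± 0.644 CPM), and Fut10 was higher (3.49, from 0.116 to 1.31 CPM).

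Immune markers were tested for 7 genes, 2 higher and 3 lower, at sums of 259 to 413 CPM in WT and 103 to 127 CPM in KO that were mostly Cd68, a lysosomal protein of many cells (from 282 ± 77.7 to 111 ± 11.3 CPM). Csf1r, the receptor for Csf1, read 37.6, 36.7 and 19.7 CPM in WT and 0.0962, 0.571 and 0.259 CPM in KO (-6.65 ± 0.70, -7.44 without KO replicate 2), while the macrophage gene Adgre1 was not called (0.156 ± 0.149 and 0.0531 ± 0.0575 CPM) and Lyz2 and Itgam, which were higher, were at low levels (2.86, from 0.184 to 1.37 CPM and 4.25, from 0.133 to 2.58 CPM). Endothelial markers summed to at most 3.90 CPM in any library. In bulk RNA fewer cells of a type and less RNA per cell cannot be told apart, and the part that other cell types played in any result was not tested. The endometrial list had 6 of 15 tested members higher and 5 lower, near the 37.7% and 34% of all tested genes. Of its members Foxa2, the factor of uterine glands, rose from 1.80 ± 0.749 to 65.5 ± 1.91 CPM. Krt18 and Emx2 fell from 959 ± 54.3 to 550.4 ± 94.0 CPM and from 59.9 ± 3.35 to 36.5 ± 0.752 CPM.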

How the data were processed

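Poly(A) RNA of passage 3 organoids was sequenced in pairs, per the labels' protocols. The deposited values are raw read counts per gene that the authors made with featureCounts, ignoring strand and counting each mate of a pair singly, per the file headers. Those headers name featureCounts 2.0.0 where the submitters' processing notes give 2.0.3, with Trim Galore 0.6.6, STAR 2.7.10b and build GRCm39. Sequence shared between close copies and overlapping genes on opposite strands can therefore move reads between genes.

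Groups were taken from the sample titles. Genes were filtered with filterByExpr of edgeR 4.0.16 (minimum count 10), scaled by TMM and tested with edgeR's quasi-likelihood test in 1 fit over all 12 libraries, which share the estimate of spread, with Benjamini-Hochberg adjustment over 16465 of 26264 genes and a threshold of 0.05. The fit was first run on simulated data in which few genes changed, drawn alike in both directions, with 1 spread for all genes. Here most tested genes were called and the large changes were lopsided, so that run does not test the scaling used here. A group with 0 reads was set at a floor of 3 reads over its 3 libraries, and groups with 1 to 3 reads were given a ratio with an exact 95% interval. These reflect counting error alone. RefSeq gave gene classes, overlaps and promoters (GRCm38.p6), and GENCODE exon lengths were found for 24972 genes. Replicates differed by more than sampling noise (chi-square per degree of freedom 46.5 to 210). Replicate numbers did not pair the WT and KO libraries without estrogen. Pairing of untreated with treated libraries of a genotype was not tested, and the fit took all 12 libraries as independent. In the 20 most abundant gained genes the same KO replicate number was highest untreated and treated. Should same-numbered libraries share organoid lines, the SEs and adjusted p-values of this fit may be too small. A fit of the 6 untreated libraries alone, which does not use the treated ones, called 11284 genes.

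Genes were named by rule: Esr1, the 20 strongest gained and 20 strongest lost genes, the 20 most abundant of each group, the 15 largest rises and falls, the 10 most abundant genes not called, up to 2 called members per direction of each list with at least 5 CPM in the higher group, and defining cell type markers. Members named beyond this, and Pde10a, 4930546K05Rik and Tex45, were chosen after their values were seen. The comparison, the lists and the rules were chosen with earlier results of these data known. Alternatives were library-size scaling, DESeq2 1.42.0, no filter, a filter at 1 CPM, the 6 libraries alone, a replicate block and leaving out each library. Results for some genes and 1 gene list are not reported here.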

Additional observations from a re-analysis of the deposited data

How the results depend on the processing

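The count of genes called was 11811 as reported, 11695 with library-size scaling, 11970 by DESeq2, 11925 with no filter, 10205 with at least 1 CPM in 3 libraries and 11284 with the 6 libraries alone, and 11002 to 11470 when 1 library was left out. A replicate block in the 6 libraries called 10862 genes, of which 10657 were called as reported. The labels share replicate numbers across genotypes, but same-numbered libraries did not deviate together (r of -0.01, 0.02 and 0.03), so the numbers were not taken as pairs. Among results about named genes the block took the call from 3, Eef1a1 included, and gave it to 5.

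Gained genes numbered 457 with at least 10 reads asked of every KO library. Lost genes numbered 61 with at least 10 reads in every WT library, and 334 with up to 3 reads allowed over KO. With at least 1 CPM in 3 libraries 0 Hox genes were called, against 1 as reported. The cause of these moves is the stricter or looser read limit itself.

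Signs turned for Hsp90ab1 and for genes that were not called. With library-size scaling the log2 fold change was 0.19 for Rpl4, 0.16 for Bsg, 0.18 for Rps4x, 0.20 for Pou2f3, 0.057 for Cdh1 and 0.19 for Smtn. Hsp90ab1 had been called lower and was at 0.016 there. By DESeq2 it was 0.015 for Rpl4, 0.0021 for Rps4x and 0.0083 for Smtn, and with the block 0.0095 for Smtn. When 1 library was left out in turn it ran from -0.073 to 0.26 for Fth1, -0.021 to 0.11 for Aldoa, -0.078 to 0.031 for Rpl4, -0.17 to 0.095 for Bsg, -0.13 to 0.028 for Rps4x, -0.60 to 1.99 for Pou2f3, -0.14 to 0.45 for Syp, -0.17 to 0.56 for Upk2, -3.60 to 0.12 for Dcn and -0.26 to 0.10 for Smtn. The cause was not tested.

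Single WT libraries moved some rises by over 1.5 times without ending the call. Without WT replicate 3 the fitted log2 fold change was larger for Elovl4 (11.06), Grhl3 (8.73), Igfbp5 (10.29), Il1rl2 (8.94), Pparg (5.59), Spdef (5.98), Ttll6 (10.26) and Trf (10.16), and without WT replicate 2 for Nos2 (9.36), Pltp (9.58) and Tmprss11a (10.35). Without KO replicate 2 it was 8.01 for Trf and -5.23 for Umod. Depth limits what can be said of genes under the 3-read floor, which are not shown to be silent.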

Other observations

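Gained genes were also placed in genome order, a reading made after the values were seen. Of 21027 protein-coding genes placed by RefSeq, 304 had at most 3 reads over WT with at least 1 CPM in KO. Runs of 3 or more such neighbours were few. Duox2, which makes hydrogen peroxide at epithelial surfaces, stood beside Duoxa2 and Duoxa1, whose proteins bring dual oxidases to the membrane. Duox2 had 2 reads in WT and 7.46 ± 0.839 CPM in KO (SD, n = 3), Duoxa2 0 reads and 2.39 ± 0.657 CPM, and Duoxa1 0 reads and 17.5 ± 4.85 CPM.

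The cornified-envelope cluster held the other runs of gained genes. Sprr2k, Sprr1b and Sprr3, small proline-rich precursors, had 0, 1 and 0 reads in WT and 35.8 ± 3.28, 51.7 ± 22.6 and 56.5 ± 12.4 CPM in KO. The 8 neighbours from Lce1d to Lce1k had at most 2 reads over WT and reached 3.20 ± 1.73 (Lce1j) to 17.9 ± 8.43 CPM (Lce1d) in KO. Lce3d, Lce3e and Lce3f had 0 reads in WT and 25.3 ± 11.4, 40.1 ± 18.3 and 50.9 ± 24.7 CPM in KO. Close copies make the split within both families uncertain.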
